A study of Mus musculus with 20 samples.

Results

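The 10 genes described here encode costimulatory receptors of T cells, members of the TNF receptor superfamily and 1 costimulatory ligand. They were Cd27, Cd28, Icos, Tnfrsf4 (OX40), Tnfrsf9 (CD137), Tnfrsf18 (GITR), Tnfrsf1b (TNFR2), Fas (CD95), Cd226 (DNAM-1) and Cd40lg (CD40 ligand). They were taken by symbol, 1 transcript each, from 23992 gene symbols in tables of RNA-sequencing counts. All 10 had enough reads to be tested in the 1st of 2 experiments, among 13974 genes. In the 2nd experiment 9 of them were tested among 13772 genes, and Cd40lg was too low.

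CD28 is the receptor that supplies the classical second signal beside the T cell receptor, and ICOS is its inducible relative; both recruit phosphatidylinositol 3-kinase. CD27, OX40, CD137, GITR and TNFR2 have no enzymatic activity and bind TRAF adaptors once their ligands cluster them. They feed the canonical and alternative NF-kB pathways that sustain division and survival. FAS instead carries a death domain and assembles FADD and caspase-8. CD226 is an adhesion and costimulatory receptor for CD155 (Pvr), for which the inhibitory receptor TIGIT competes. In CD8+ T cells OX40, CD137 and GITR are known as receptors that antigen receptor signalling induces, whereas CD27, CD28 and CD226 are already present on resting cells.

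The cells were CD8+ T cells of wild-type C57BL/6J mice aged 6 to 8 weeks, isolated from spleen by negative selection. They were activated for 48 hours with plate-bound anti-CD3 (2 µg/mL) and soluble anti-CD28 (1 µg/mL), rested overnight, and then kept for 24 hours with mIL-21, the murine cytokine, with 21h10, a computationally designed IL-21 mimic, or without cytokine. Every group therefore shared the anti-CD3 and anti-CD28 activation, and the unstimulated groups were unstimulated only by cytokine. Experiment 1 held unstimulated cells and both cytokines at 100 pM and 1 nM. Experiment 2 held its own unstimulated cells and both cytokines at 10 nM and 100 nM. All 5 groups per experiment were sequenced as duplicates (n = 2). Each dose was used in 1 experiment only, so that dose range and experiment cannot be told apart. The study's methods describe its RNA-seq replicates in general as independent, from separate tissue preparations or donors, while the labels of these libraries give only a duplicate number, so p-values measure only the spread between these libraries.

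Mapped reads were worked out for each library from the deposited counts, transcript lengths and RPKM. They came to 44032447 to 110876981 in experiment 1 and 40317113 to 57601125 in experiment 2. The biological coefficient of variation came to 4.32% and 8.80%, so that smaller differences passed the test in experiment 1. All 6 CD8 T cell markers were expressed (summed RPKM 1057 to 1636 and 1356 to 1546). The 3 markers of CD4+ and regulatory T cells summed to 5.25 to 5.33 in unstimulated and 10.7 to 12.7 in treated libraries of experiment 1, and to 4.66 to 5.79 and 5.27 to 8.25 in experiment 2. Most of that sum was Zbtb7b. Cd4 itself lay at 0.915 to 1.06 RPKM in the unstimulated and 0.755 to 1.09 in the treated libraries of experiment 1, and at 0.747 to 0.807 and 0.208 to 0.313 in experiment 2. Foxp3, the marker of regulatory T cells, was at 0.0306 to 0.0325 and 0.00718 to 0.0203 RPKM in experiment 1 and at 0.0345 to 0.0428 and 0.292 to 0.696 in experiment 2. The 6 myeloid markers summed to 0.186 to 0.278 RPKM in unstimulated and 2.86 to 14.0 in treated libraries of experiment 1, and to 0.651 to 0.805 and 6.36 to 16.6 in experiment 2, nearly all of it Itgam, with Csf1r and Fcgr1 at or near 0 in every group. B cell, NK cell and dendritic cell markers summed to at most 11.1, 2.17 and 7.58 RPKM. The part of these small sums in the results below was not tested.

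The members lie on 6 chromosomes of GRCm38. Tnfrsf4 (chr4:156013595-156016613, + strand) and Tnfrsf18 (chr4:156026322-156028894, + strand) are neighbours, 9708 bases apart with 0 protein-coding genes between them, and Tnfrsf9 (chr4:150920155-150946104, + strand) and Tnfrsf1b (chr4:145212368-145246870, − strand) lie on the same chromosome. Cd28 (chr1:60746388-60773359, + strand) and Icos (chr1:60960773-61000322, + strand) flank 1 protein-coding gene, Ctla4. The others are Cd27 (chr6:125232620-125237136, − strand), Fas (chr19:34290647-34327775, + strand), Cd40lg (chrX:57212143-57224042, + strand) and Cd226, whose position is not used here. The use of strand in counting is not given in the sources used here, and 27.2% of the exonic bases of Tnfrsf18 overlap Gm16008 on the other strand. Cd27 shares 5.54% of its exonic bases with Mir8113 on the same strand. Reads of these overlaps cannot be assigned to 1 gene.

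IL-21 signals through JAK1 and JAK3 to STAT proteins, which bind gamma-activated sequences (GAS, TTCNNNGAA). RefSeq promoter windows (GRCm38.p6) were searched on both strands over the 250 bases before the annotated start. Windows were used for 6 of the 10 members, 7 windows in all, and none was used here for Cd28, Icos, Cd226 and Cd40lg. A GAS match was found in 4 of the 6 genes and in 4 of the 7 windows, as against 7.02% of the 32851 windows of all genes. The 4 matches are shown because they belong to genes that changed with cytokine. Tnfrsf4 and Cd27, which had no match, changed as well, as did most genes in experiment 1. The 9 letters of each match are in capitals, with 10 bases on either side.
Fas, chr19:34290556-34290584, + strand: tcaaagcgatTTCTGGGAAgacctgaata
Tnfrsf9, chr4:150927853-150927881, + strand: caacagctgaTTCCAAGAAacccttcaga
Tnfrsf18, chr4:156026213-156026241, + strand: tgctctacacTTCACAGAAggcctttaca
Tnfrsf1b, chr4:145247033-145247061, − strand: agcgcattcaTTCCCGGAAgagatgctgg
The start is that of the promoter window, which for Fas, Tnfrsf4 and Cd27 lies inside the gene span printed above. The match began 93 bases before it in Fas, 99 in Tnfrsf18 and 181 in Tnfrsf1b, and that of Tnfrsf9 lies before the second annotated start of this gene. That of Tnfrsf18 lies in an annotated exon of Tnfrsf18 that starts further upstream. Letters for AP-1 (TGACTCA or TGAGTCA) were found in Fas and at the second start of Tnfrsf9, as against 4.46% of all windows, and an NF-kB motif at the second start of Tnfrsf9, as against 7.25%. The GAS and NF-kB letters were not found in the windows of Tnfrsf4 and Cd27. A match of letters is a description of the sequence and not a measured site.

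**Figure D1:**
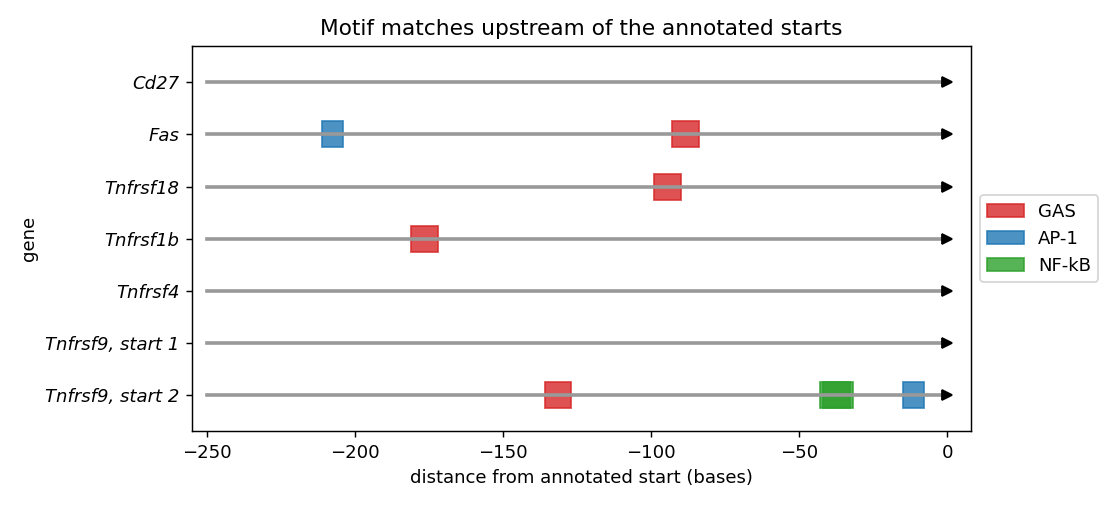
Matches to GAS (red), AP-1 (blue) and NF-kB (green) motifs along the 250 bases before the annotated start of the 6 members with a RefSeq promoter window, where the x axis is the distance from the start in bases and the arrowhead marks the start. Fas, Tnfrsf18 and Tnfrsf1b have 1 GAS match each, Tnfrsf9 has 1 at its second start, and the lines for Tnfrsf4, Cd27 and the first start of Tnfrsf9 are empty.

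Without cytokine, Cd27 and Cd28 were the most expressed of the 10. On the RPKM scale, which corrects for transcript length, Cd27 had a mean level of 72.0 ± 1.77 (SD, n = 2) and Cd28 one of 65.4 ± 0.460 in experiment 1, followed by Tnfrsf18, Tnfrsf9, Cd226, Tnfrsf4, Fas, Icos and Tnfrsf1b (17.2 ± 0.573). The duplicates of no gene overlapped those of the next in that order. In experiment 2 Cd27 (111 ± 9.65) and Cd28 (91.5 ± 4.47) again led, and the neighbours Cd226, Tnfrsf18 and Tnfrsf9, as well as Fas, Tnfrsf4 and Tnfrsf1b, overlapped between duplicates. Cd40lg was at 0.495 and 0.177 RPKM. With cytokine the order changed. In all 4 treated groups of experiment 1 Tnfrsf9 was the most expressed of the 10, reaching 509 ± 6.58 RPKM with 1 nM 21h10, with Tnfrsf18 and Tnfrsf4 next in 3 of the 4. In all 4 treated groups of experiment 2 Icos came first, between 73.5 and 82.2 RPKM on average.

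**Figure D2:**
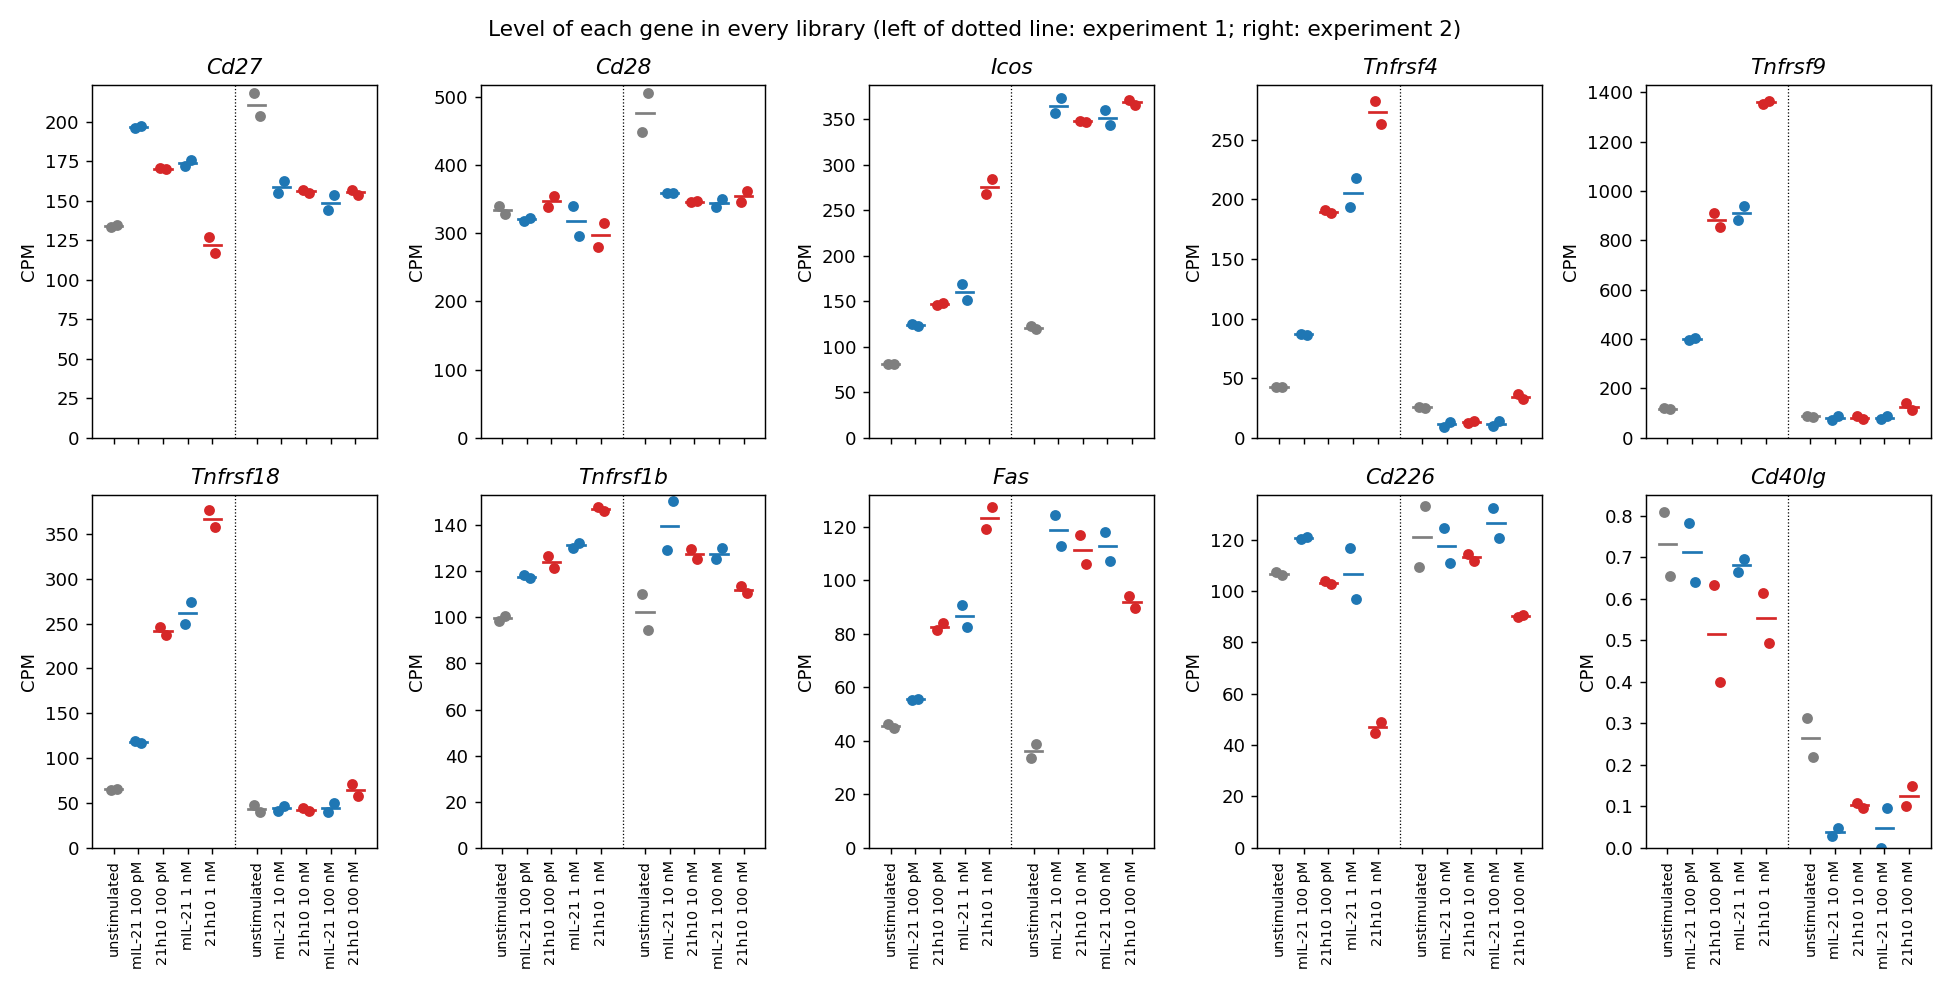
Normalised read count (CPM, linear axis from 0) of each of the 10 genes in all 20 libraries, with 1 point per library and a bar at the mean of the duplicates; grey is unstimulated, blue mIL-21 and red 21h10, and the dotted line separates experiment 1 from experiment 2. Tnfrsf4, Tnfrsf9 and Tnfrsf18 climb across experiment 1 and stay low in experiment 2, Icos and Fas are raised in the treated groups of both, and Cd226 is lowest with 1 nM 21h10.

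Most members changed with cytokine, as did most genes in experiment 1. Against unstimulated cells, 8 of 10 members passed an adjusted p of 0.05 with 100 pM mIL-21, where 77.7% of all genes tested did, 7 with 100 pM 21h10 (81.6%), 7 with 1 nM mIL-21 (80.1%) and 9 with 1 nM 21h10 (80.3%). These shares were near that background, and are no result about the members. In the first 3 of these comparisons every member that passed was higher. With 1 nM 21h10, 6 were higher and 3 were lower, and the median log2 fold change of the 10 was 1.00 beside −0.04 over all genes. In experiment 2, 6 of 9 members passed with 10 nM mIL-21 (46.2% of genes), 6 with 10 nM 21h10 (50.1%), 6 with 100 nM mIL-21 (46.2%) and 8 with 100 nM 21h10 (50.8%). In each of the first 3, Icos, Fas and Tnfrsf1b were higher and Cd27, Cd28 and Tnfrsf4 were lower. These comparisons share the unstimulated libraries of their experiment. In a bulk library, fewer cells of a kind and less RNA per cell cannot be told apart.

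**Figure D3:**
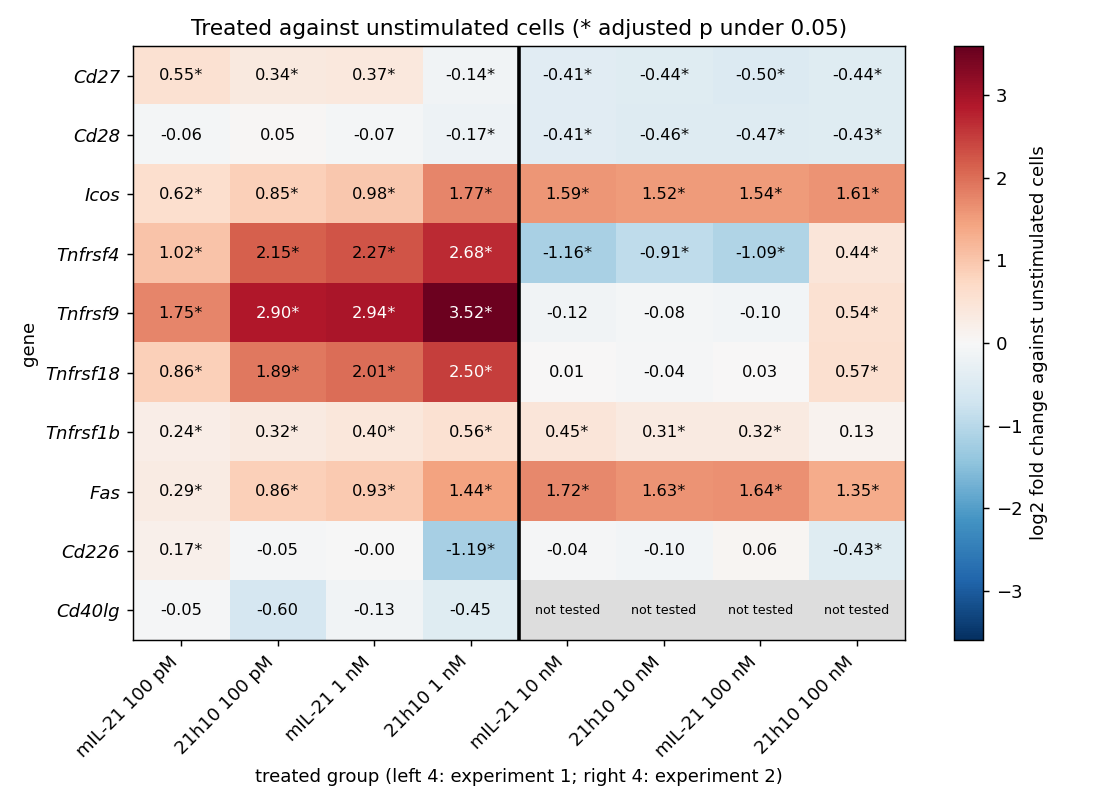
Log2 fold change of each gene against the unstimulated cells of the same experiment, with 1 column per treated group, a colour scale from blue (lower) to red (higher) and an asterisk for an edgeR adjusted p under 0.05; grey cells were not tested. Tnfrsf9 reaches 3.52 with 1 nM 21h10, the 3 low values for Tnfrsf4 in experiment 2 are −1.16, −0.91 and −1.09, and Icos and Fas are red throughout.

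Tnfrsf9, the inducible receptor CD137, had the largest fold changes of the 10 in experiment 1, but not in experiment 2, where those of Fas and Icos were larger. In experiment 1 its normalised read count (CPM, counts scaled to library size, within an experiment, by the trimmed mean of M-values) was 120.1 and 117 in the unstimulated libraries, 396 and 404 with 100 pM mIL-21, 909 and 856 with 100 pM 21h10, 882 and 940.3 with 1 nM mIL-21 and 1354 and 1365 with 1 nM 21h10. Every treated library lay above both unstimulated ones, and the groups were ordered the same way in both duplicates except that 100 pM 21h10 and 1 nM mIL-21 overlapped. The increase was 3.37-fold with 100 pM mIL-21 (log2 fold change 1.75, SE 0.05, edgeR adjusted p = 3.57e-15) and 11.5-fold with 1 nM 21h10 (log2 fold change 3.52, SE 0.05, edgeR adjusted p = 6.32e-19). In experiment 2 the CPM was 88.4 and 85.7 without cytokine, 71.3 and 88.5 with 10 nM mIL-21, 89.5 and 74.9 with 10 nM 21h10, 74.4 and 87.6 with 100 nM mIL-21 and 140.7 and 112 with 100 nM 21h10. There the first 3 treated groups overlapped the unstimulated libraries and only 100 nM 21h10 lay above them. No difference from unstimulated cells passed the test with mIL-21 at 10 nM (log2 fold change −0.12, 95% confidence interval −0.39 to 0.15) or 100 nM (−0.10, −0.37 to 0.16), or with 10 nM 21h10 (−0.08, −0.35 to 0.19). Under mapped-read scaling the value with 10 nM 21h10 was called lower (−0.35, adjusted p = 0.0412). With 100 nM 21h10 the level was higher (log2 fold change 0.54, SE 0.13, edgeR adjusted p = 0.00231). That call was lost when libraries were scaled by mapped reads (0.24, adjusted p = 0.146), with limma (0.22, adjusted p = 0.24) and without 21h10 100 nM replicate 1 (0.36, adjusted p = 0.0627).

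Tnfrsf4, the receptor OX40, rose in experiment 1 and fell in most of experiment 2. Its CPM in experiment 1 was 42.8 and 42.5 in the unstimulated libraries, 87.2 and 86.4 with 100 pM mIL-21, 191 and 188 with 100 pM 21h10, 193.4 and 218 with 1 nM mIL-21 and 282 and 264 with 1 nM 21h10. No treated library overlapped the unstimulated ones, and 100 pM of 21h10 gave about the level of 1 nM mIL-21. The change ran from 1.02 with 100 pM mIL-21 (SE 0.06, edgeR adjusted p = 2.35e-11) to 2.68 with 1 nM 21h10 (SE 0.06, edgeR adjusted p = 4.51e-17) on the log2 scale, the latter 6.39-fold. In experiment 2 the CPM was 26.2 and 24.7 without cytokine, 9.34 and 13.3 with 10 nM mIL-21, 12.6 and 14.4 with 10 nM 21h10, 9.84 and 14.1 with 100 nM mIL-21 and 36.5 and 32.6 with 100 nM 21h10. With mIL-21 at either dose and with 10 nM 21h10 all 6 libraries lay below both unstimulated ones, whereas both libraries with 100 nM 21h10 lay above. Thus the log2 fold change was −1.16 (SE 0.17, edgeR adjusted p = 4.13e-05) with 10 nM mIL-21 and 0.44 (SE 0.16, edgeR adjusted p = 0.0345) with 100 nM 21h10. The increase with 100 nM 21h10 was not called by limma (0.13, adjusted p = 0.529), under mapped-read scaling (0.14, adjusted p = 0.497) or without any 1 of the 4 libraries compared (adjusted p = 0.0589 to 0.193).

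Tnfrsf18, the receptor GITR and the genomic neighbour of Tnfrsf4, followed Tnfrsf9 more closely. Its CPM in experiment 1 was 64.8 and 65.2 in the unstimulated libraries, 119 and 116 with 100 pM mIL-21, 246 and 237 with 100 pM 21h10, 249 and 274 with 1 nM mIL-21 and 377 and 357 with 1 nM 21h10. The treated libraries were all above the unstimulated ones, by 1.81-fold with 100 pM mIL-21 (log2 fold change 0.86, SE 0.05, edgeR adjusted p = 7.03e-11) and 5.65-fold with 1 nM 21h10 (log2 fold change 2.50, SE 0.05, edgeR adjusted p = 3.34e-17). In experiment 2 its CPM was 47.0 and 40.1 without cytokine, 40.4 and 47.0 with 10 nM mIL-21, 43.9 and 41.0 with 10 nM 21h10, 39.5 and 49.4 with 100 nM mIL-21 and 71.2 and 57.7 with 100 nM 21h10. Only the libraries with 100 nM 21h10 lay clear of the unstimulated ones (log2 fold change 0.57, SE 0.13, edgeR adjusted p = 0.00185), and this call was lost with limma (0.26, adjusted p = 0.174) and under mapped-read scaling (0.27, adjusted p = 0.12). For the other 3 treated groups the log2 fold changes lay between −0.04 and 0.03, with 95% intervals of −0.27 to 0.28 with 10 nM mIL-21, −0.31 to 0.24 with 10 nM 21h10 and −0.25 to 0.30 with 100 nM mIL-21. OX40 and GITR are also abundant on regulatory T cells, whose marker Foxp3 was at 0.0345 and 0.0428 RPKM without cytokine, 0.518 and 0.696 with 10 nM 21h10 and 0.292 and 0.351 with 100 nM 21h10, and lower in treated than in unstimulated libraries of experiment 1. Its part in these results was not tested. Over all 20 libraries, with log2 CPM centred within each experiment, the root mean square difference was 0.28 between Tnfrsf9 and Tnfrsf18 and 0.37 between Tnfrsf4 and Tnfrsf18.

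The contrast between the experiments was itself tested, as the mean log2 response of the 4 treated groups in experiment 2 minus that in experiment 1. It passed for 8 of 10 members, as it did for 64.7% of 14530 genes. For Tnfrsf9 the difference was −2.78 (SE 0.12, edgeR adjusted p = 4.02e-14), from the fit over 20 libraries. In the separate fits of the experiments its mean log2 response was 2.78 in experiment 1 and 0.06 in experiment 2. Tnfrsf4 had a difference of −2.77 (edgeR adjusted p = 3.07e-13) and Tnfrsf18 one of −1.73 (edgeR adjusted p = 3.21e-11). Cd27 (−0.79) and Cd28 (−0.44) also had a lower response in experiment 2, whereas Icos (0.45) and Fas (0.65) had a higher one. Tnfrsf1b did not pass (−0.14) but did with limma (−0.29, adjusted p = 0.0193), under mapped-read scaling (−0.31, adjusted p = 0.00997), without unstimulated replicate 2 of experiment 2 (−0.25, adjusted p = 0.00938) and without mIL-21 10 nM replicate 2 (−0.17, adjusted p = 0.0472). The unstimulated cells already differed between experiments on the RPKM scale, by means of 31.2 against 18.3 for Tnfrsf4 and 72.0 against 111 for Cd27. Dose range and experiment cannot be told apart in these differences.

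Icos, the inducible relative of Cd28, rose in every treated group. Its CPM in experiment 1 was 81.2 and 81.2 in the unstimulated libraries, 125 and 123 with 100 pM mIL-21, 145 and 148 with 100 pM 21h10, 169 and 152 with 1 nM mIL-21 and 268 and 284 with 1 nM 21h10. All 8 treated libraries lay above the unstimulated ones and the duplicates of the 4 treated groups did not overlap. The increase was 1.53-fold with 100 pM mIL-21 (log2 fold change 0.62, SE 0.05, edgeR adjusted p = 7.82e-09) and 3.40-fold with 1 nM 21h10 (log2 fold change 1.77, SE 0.05, edgeR adjusted p = 2.94e-15). In experiment 2 the CPM was 123 and 119 without cytokine, 357 and 373 with 10 nM mIL-21, 348 and 347 with 10 nM 21h10, 360.0 and 344 with 100 nM mIL-21 and 372 and 366 with 100 nM 21h10. The 4 treated groups stood close together, with log2 fold changes from 1.52 to 1.61 and the largest edgeR adjusted p at 1.35e-10.

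Cd28, the receptor engaged during the activation of these cells, changed little in experiment 1. Its CPM there was 340.2 and 328 in the unstimulated libraries, 318 and 323 with 100 pM mIL-21, 339 and 354 with 100 pM 21h10, 340.3 and 296 with 1 nM mIL-21 and 279 and 314 with 1 nM 21h10. Of the 4 comparisons with unstimulated cells only 1 nM 21h10 passed (log2 fold change −0.17, SE 0.06, edgeR adjusted p = 0.02), and that call was lost with DESeq2 (adjusted p = 0.0637), with the compared groups alone (adjusted p = 0.105), without unstimulated replicate 1 (−0.14, adjusted p = 0.122) and without 21h10 1 nM replicate 1 (−0.09, adjusted p = 0.217). A fall with 1 nM mIL-21 was called without its replicate 1 (−0.17, adjusted p = 0.0264). In experiment 2 its CPM was 448 and 506 without cytokine, 359 and 358 with 10 nM mIL-21, 346 and 347 with 10 nM 21h10, 338 and 351 with 100 nM mIL-21 and 346 and 362 with 100 nM 21h10. All 8 treated libraries lay below both unstimulated ones, and the log2 fold changes were between −0.47 (SE 0.08, edgeR adjusted p = 0.000166) and −0.41 (SE 0.08, edgeR adjusted p = 0.000501).

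Cd27, the constitutive TNF receptor family member bound by CD70, rose in 3 of the 4 treated groups of experiment 1 and fell with 1 nM 21h10 and in all 4 treated groups of experiment 2. Its CPM in experiment 1 was 133.7 and 134.8 in the unstimulated libraries, 196 and 197 with 100 pM mIL-21, 171 and 170.0 with 100 pM 21h10, 172 and 176 with 1 nM mIL-21 and 127 and 117 with 1 nM 21h10. The first 3 treated groups lay above the unstimulated libraries, 100 pM mIL-21 the highest (log2 fold change 0.55, SE 0.05, edgeR adjusted p = 6.08e-09), and 1 nM 21h10 lay below them (log2 fold change −0.14, SE 0.05, edgeR adjusted p = 0.012). The fall with 1 nM 21h10 was small and was lost with DESeq2 (adjusted p = 0.0659), with the compared groups alone (adjusted p = 0.195), without unstimulated replicate 1 or 2 (adjusted p = 0.0512 and 0.0647) and without 21h10 1 nM replicate 2 (−0.08, adjusted p = 0.122). In experiment 2 its CPM was 218 and 203.6 without cytokine, 155 and 163 with 10 nM mIL-21, 157 and 155 with 10 nM 21h10, 144 and 153 with 100 nM mIL-21 and 157 and 154 with 100 nM 21h10. All 8 treated libraries lay below the unstimulated ones, with log2 fold changes from −0.50 (edgeR adjusted p = 6.71e-05) to −0.41 (edgeR adjusted p = 0.00042).

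Fas, the death receptor, rose in all 8 treated groups. The CPM in experiment 1 was 46.1 and 44.8 in the unstimulated libraries, 55.3 and 55.4 with 100 pM mIL-21, 81.1 and 84.0 with 100 pM 21h10, 90.7 and 82.6 with 1 nM mIL-21 and 119 and 127 with 1 nM 21h10. Every treated library exceeded the unstimulated ones, by 1.22-fold with 100 pM mIL-21 (log2 fold change 0.29, SE 0.06, edgeR adjusted p = 0.000173) and 2.71-fold with 1 nM 21h10 (log2 fold change 1.44, SE 0.06, edgeR adjusted p = 7.5e-14). In experiment 2 it was 33.5 and 38.7 without cytokine, 124 and 113 with 10 nM mIL-21, 117 and 106 with 10 nM 21h10, 118 and 107 with 100 nM mIL-21 and 94.1 and 89.5 with 100 nM 21h10. There the increase was largest with 10 nM mIL-21, at 3.29-fold (log2 fold change 1.72, SE 0.10, edgeR adjusted p = 7.51e-10), and smallest with 100 nM 21h10, at 2.55-fold (log2 fold change 1.35, SE 0.10, edgeR adjusted p = 1.63e-08). Across the 20 libraries Icos and Fas were the closest pair among the members tested in both experiments, with a root mean square difference of 0.16 in centred log2 CPM.

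Tnfrsf1b, the TNF receptor of lymphocytes that lacks a death domain, showed a smaller rise. The CPM in experiment 1 was 98.6 and 101 in the unstimulated libraries, 118 and 117 with 100 pM mIL-21, 127 and 122 with 100 pM 21h10, 130.4 and 132 with 1 nM mIL-21 and 148 and 146 with 1 nM 21h10. No treated library overlapped the unstimulated ones, and the log2 fold changes went from 0.24 (edgeR adjusted p = 9.97e-05) to 0.56 (edgeR adjusted p = 2.14e-09). In experiment 2 it was 110.4 and 94.6 without cytokine, 129 and 150.5 with 10 nM mIL-21, 129.5 and 125 with 10 nM 21h10, 125 and 130.2 with 100 nM mIL-21 and 113 and 110.5 with 100 nM 21h10. On the CPM scale each treated library again lay above both unstimulated ones. On the RPKM scale every treated group overlapped the unstimulated libraries, with 100 nM 21h10 at 14.8 to 15.9 beside 15.5 to 19.1 without cytokine. The test passed with 10 nM mIL-21 (0.45), 10 nM 21h10 (0.31) and 100 nM mIL-21 (0.32). Under mapped-read scaling these 3 values were 0.27, 0.04 and 0.09 and none passed, where that scaling moved the median of all genes by −0.18 to −0.30 on the log2 scale in the treated groups of experiment 2. With limma none of the 3 passed either. The call at 10 nM 21h10 was also lost without unstimulated replicate 2 (adjusted p = 0.0803) and 21h10 10 nM replicate 1 (adjusted p = 0.0771), and that at 100 nM mIL-21 without unstimulated replicate 2 (adjusted p = 0.0776) and mIL-21 100 nM replicate 2 (adjusted p = 0.0791).

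Cd226, the costimulatory receptor for CD155, was lower than in unstimulated cells with 21h10 at the higher dose of each experiment. The CPM in experiment 1 was 107 and 106 in the unstimulated libraries, 120.0 and 121 with 100 pM mIL-21, 104 and 103 with 100 pM 21h10, 117 and 96.9 with 1 nM mIL-21 and 44.7 and 48.9 with 1 nM 21h10. Both libraries with 1 nM 21h10 lay below all others, a fall to 0.44 of the unstimulated level (log2 fold change −1.19, SE 0.07, edgeR adjusted p = 2.83e-11). With 100 pM mIL-21 it was higher by a small amount (log2 fold change 0.17, SE 0.07, edgeR adjusted p = 0.0227), a call that was lost without any 1 of the 4 libraries compared (adjusted p = 0.0748 to 0.0961). In experiment 2 the CPM was 109 and 133 without cytokine, 125 and 111 with 10 nM mIL-21, 114 and 112 with 10 nM 21h10, 132 and 121 with 100 nM mIL-21 and 89.7 and 90.7 with 100 nM 21h10. Only with 100 nM 21h10 were both libraries below the unstimulated ones (log2 fold change −0.43, SE 0.10, edgeR adjusted p = 0.00212). With 10 nM 21h10 the log2 fold change of −0.10 did not pass, but it was called lower with limma (−0.35, adjusted p = 0.00861), under mapped-read scaling (−0.37, adjusted p = 0.00392) and without unstimulated replicate 1 (−0.24, adjusted p = 0.0455). Tigit, which encodes the inhibitory receptor for the same ligand, moved the other way in experiment 1, from a mean CPM of 15.6 without cytokine to 65.8 with 1 nM 21h10 (log2 fold change 2.08, SE 0.06, edgeR adjusted p = 1.17e-15), and also rose with 100 nM 21h10 (log2 fold change 0.64, SE 0.12, edgeR adjusted p = 0.000421).

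Cd40lg, the CD40 ligand, which is chiefly a product of CD4+ T cells, was barely expressed. The CPM in experiment 1 was 0.811 and 0.654 in the unstimulated libraries, 0.784 and 0.641 with 100 pM mIL-21, 0.633 and 0.399 with 100 pM 21h10, 0.665 and 0.697 with 1 nM mIL-21 and 0.615 and 0.494 with 1 nM 21h10, and no comparison there passed the test, although 100 pM 21h10 against unstimulated cells (−0.60) was called lower with no filter (−0.62, adjusted p = 0.0384), under mapped-read scaling (−0.61, adjusted p = 0.0469) and without 21h10 100 pM replicate 1 (−0.90, adjusted p = 0.0173). In experiment 2 it was 0.313 and 0.218 without cytokine, 0.0279 and 0.0463 with 10 nM mIL-21, 0.107 and 0.0967 with 10 nM 21h10, 0 and 0.0968 with 100 nM mIL-21 and 0.0994 and 0.149 with 100 nM 21h10, with 0 reads in 1 library of 100 nM mIL-21. All 8 treated libraries of experiment 2 were below the unstimulated ones, and the gene was not tested there. In the fit over all 20 libraries its response was lower in experiment 2 than in experiment 1 (log2 fold change −1.69, SE 0.60, edgeR adjusted p = 0.0171), a fitted value that rests on few reads and a call lost without unstimulated replicate 2 of experiment 1 (−1.56, adjusted p = 0.0592) and without unstimulated replicate 1 of experiment 2 (−1.41, adjusted p = 0.139).

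At matched dose the designed cytokine and the native one were compared directly. At 100 pM, 7 of 10 members differed, beside 38.6% of all genes. Tnfrsf9 (1.14), Tnfrsf4 (1.13), Tnfrsf18 (1.04), Fas (0.58) and Icos (0.24) were higher with 21h10, and Cd27 (−0.21) and Cd226 (−0.22) were lower, as log2 fold changes over the mIL-21 libraries. For Tnfrsf9 this was 2.21-fold (SE 0.05 on the log2 scale, edgeR adjusted p = 1.46e-11). The Icos call was lost with limma (0.13, adjusted p = 0.138) and under mapped-read scaling (0.13, adjusted p = 0.0967), and the Cd226 call without any 1 of the 4 libraries (adjusted p = 0.0563 to 0.0853). At 1 nM, 8 of 10 differed, beside 37.7% of all genes. The largest was the fall of Cd226 (log2 fold change −1.18, SE 0.07, edgeR adjusted p = 6.25e-10), followed by the rise of Icos (log2 fold change 0.78, SE 0.05, edgeR adjusted p = 2.78e-09). Tnfrsf9 (0.58), Fas (0.51), Tnfrsf18 (0.49), Tnfrsf4 (0.41) and Tnfrsf1b (0.16) were also higher with 21h10 and Cd27 (−0.51) was lower. Of these only the Tnfrsf1b call was lost in an alternative, with limma (adjusted p = 0.111), under mapped-read scaling (adjusted p = 0.127) and with the compared groups alone (adjusted p = 0.111). Cd28 did not pass (−0.10) but was called lower without mIL-21 1 nM replicate 2 (−0.19, adjusted p = 0.023) and without 21h10 1 nM replicate 2 (−0.19, adjusted p = 0.037).

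At 10 nM edgeR called 0 of 9 members different between the cytokines, beside 0.00726% of all genes; 0 members were below an unadjusted p of 0.05, and DESeq2 and limma also called 0. The widest 95% interval was that of Tnfrsf4, −0.12 to 0.63 around 0.25, and the 95% interval of Tnfrsf9 was −0.23 to 0.31. At 100 nM, 4 of 9 members differed, beside 8.53% of all genes. Tnfrsf4 was 2.90-fold higher with 21h10 (log2 fold change 1.53, SE 0.17, edgeR adjusted p = 3.69e-05). Tnfrsf9 (log2 fold change 0.64, SE 0.13, edgeR adjusted p = 0.00471) and Tnfrsf18 (log2 fold change 0.54, SE 0.13, edgeR adjusted p = 0.0164) were higher and Cd226 was lower (log2 fold change −0.49, SE 0.10, edgeR adjusted p = 0.00537). Leaving out mIL-21 100 nM replicate 1 left Tnfrsf4 alone past the threshold, with adjusted p = 0.0975 for Tnfrsf9, 0.248 for Tnfrsf18 and 0.0818 for Cd226. Without 21h10 100 nM replicate 1 the values were 0.0941 for Tnfrsf9 and 0.198 for Tnfrsf18, and without 21h10 100 nM replicate 2 the adjusted p of Cd226 was 0.0566. With limma Tnfrsf9 (0.0674) and Tnfrsf18 (0.107) did not pass. Fas missed the threshold (log2 fold change −0.29, SE 0.09, edgeR adjusted p = 0.0653) but passed with DESeq2 (adjusted p = 0.0442), with limma (adjusted p = 0.0491) and under mapped-read scaling (adjusted p = 0.0259).

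**Figure D4:**
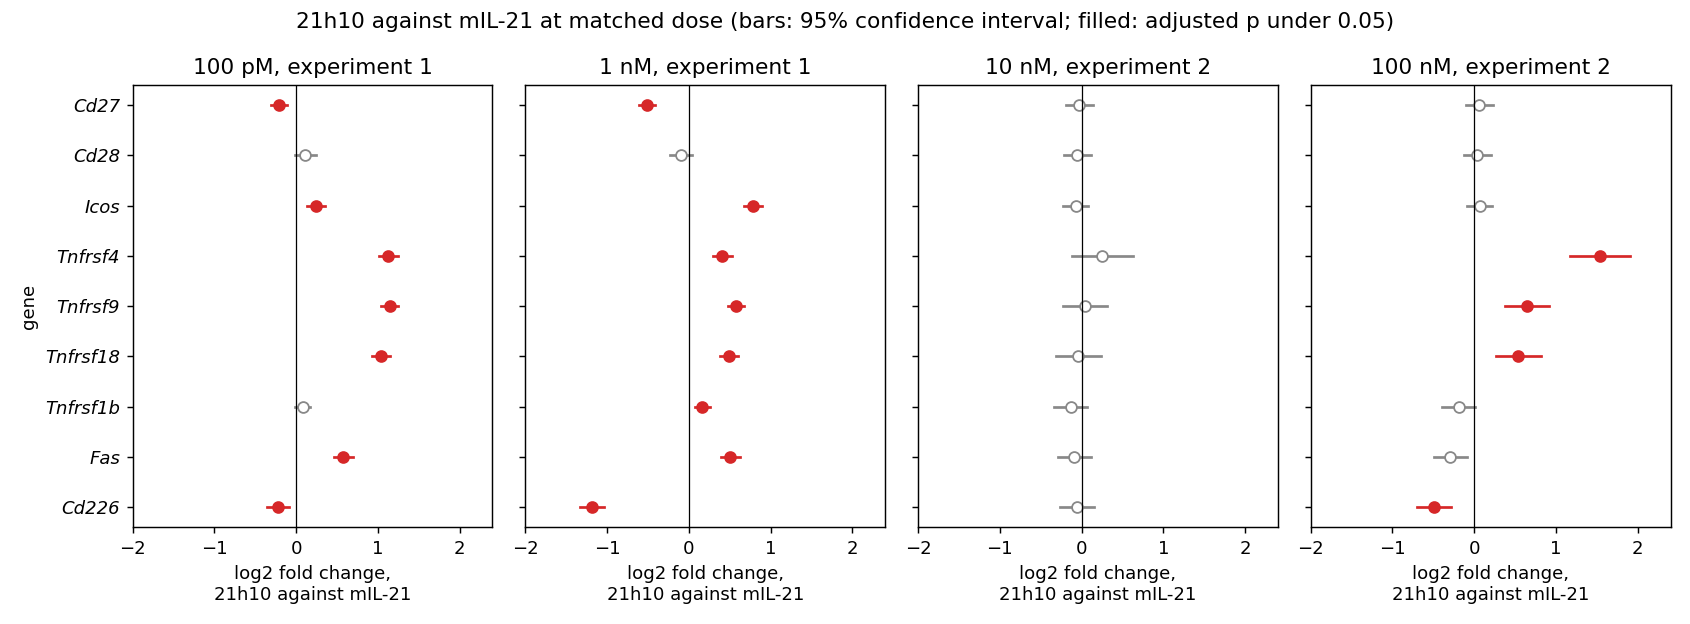
Difference of 21h10 from mIL-21 (log2 fold change) at each matched dose for 9 of the 10 genes (Cd40lg left out), with bars for the 95% confidence interval and filled red points for an edgeR adjusted p under 0.05. Tnfrsf4, Tnfrsf9 and Tnfrsf18 lie to the right of 0 at 100 pM, 1 nM and 100 nM, Cd226 lies to the left at those doses, and every interval at 10 nM spans 0.

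When 100 pM of 21h10 was set against 1 nM of mIL-21, edgeR called 0 of 10 members different, beside 0.737% of all genes. At an unadjusted p under 0.05 there were 3 members, as there were 1400 of all 13974 genes, and DESeq2 and limma called 0. These 3 were Icos (−0.13), Tnfrsf18 (−0.11) and Tnfrsf4 (−0.12), each with a value below that of 1 nM mIL-21. The log2 fold changes of the 9 members other than Cd40lg lay between −0.13 (95% interval −0.24 to −0.02, Icos) and 0.12 (−0.01 to 0.26, Cd28), and that of Cd40lg was −0.47 (−1.12 to 0.18). For Tnfrsf9 the interval was −0.15 to 0.06, so that a difference within these bounds is not excluded by these duplicates.

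Between doses of the same cytokine, mIL-21 at 1 nM differed from 100 pM in 8 of 10 members, beside 34.5% of all genes. On the log2 scale, Tnfrsf4 (1.25), Tnfrsf9 (1.19) and Tnfrsf18 (1.15) rose most, Tnfrsf4 by 2.37-fold, Fas (0.64), Icos (0.37) and Tnfrsf1b (0.16) rose less, and Cd27 (−0.18) and Cd226 (−0.18) fell. Without mIL-21 100 pM replicate 1, and likewise without replicate 2, 5 members passed, the calls of Cd27, Cd226 and Tnfrsf1b being lost. The Cd226 call was lost without any of 7 of the 10 libraries of experiment 1, with the largest move without mIL-21 1 nM replicate 2 (−0.05, adjusted p = 0.584), and the Tnfrsf1b call also with limma (adjusted p = 0.573), under mapped-read scaling (adjusted p = 0.631) and with no filter on low counts (adjusted p = 0.052). For 21h10, 9 of 10 differed between 1 nM and 100 pM, beside 39.2% of all genes, with Icos at 0.91, Tnfrsf9 at 0.62, Cd226 at −1.14 and Cd27 at −0.48. The Cd28 call there (−0.22) was lost without 21h10 1 nM replicate 1 (−0.14, adjusted p = 0.0902) and without 21h10 100 pM replicate 2 (adjusted p = 0.0895). In experiment 2 edgeR called 0 of 9 members different between 100 nM and 10 nM mIL-21, beside 0% of all genes (361 at an unadjusted p under 0.05), with 0 members under an unadjusted p of 0.05 and 0 called by DESeq2 and limma. For 21h10, 3 of 9 differed, beside 5.33% of all genes: Tnfrsf4 (log2 fold change 1.35, SE 0.17, edgeR adjusted p = 0.000166), Tnfrsf9 (0.62) and Tnfrsf18 (0.60). Only the Tnfrsf4 call remained with limma, without 21h10 10 nM replicate 2 and without 21h10 100 nM replicate 1, where Tnfrsf9 had adjusted p = 0.0866, 0.158 and 0.15 and Tnfrsf18 0.09, 0.145 and 0.183. Without 21h10 10 nM replicate 1 the Tnfrsf18 call was lost (0.65), and without either of the unstimulated libraries Fas and Cd226 passed as well. The fall of Cd226 (−0.33 in the main fit) also passed with DESeq2 (adjusted p = 0.0424) and with no filter on low counts (adjusted p = 0.0114). It passed too under mapped-read scaling (adjusted p = 0.042) and with the compared groups alone (edgeR adjusted p = 0.00336). With the compared groups alone Fas passed as well (−0.27, edgeR adjusted p = 0.0161).

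Whether the gap between the cytokines changed with dose was tested as an interaction. In experiment 1, 6 of 10 members passed, beside 18.4% of all genes. In differences of log2 fold changes, the advantage of 21h10 over mIL-21 was smaller at 1 nM than at 100 pM for Tnfrsf4 (−0.72), Tnfrsf9 (−0.57) and Tnfrsf18 (−0.55), and larger for Icos (0.55). The deficit of Cd226 (−0.96) and Cd27 (−0.31) was larger at 1 nM. The largest edgeR adjusted p of the 6 was 0.0035, for Cd27, which did not pass with limma (−0.24, adjusted p = 0.0563). In experiment 2, 1 of 9 passed, beside 0.922% of all genes. The gap was wider at 100 nM than at 10 nM for Tnfrsf4 (difference of log2 fold changes 1.28, SE 0.25, edgeR adjusted p = 0.0162), a call lost with limma (adjusted p = 0.0974) and without any 1 of 5 libraries, namely mIL-21 10 nM replicate 2 (1.00), mIL-21 100 nM replicate 1 (1.04), 21h10 10 nM replicate 1 (1.18) or 2 (1.38) and 21h10 100 nM replicate 1 (1.19), with adjusted p from 0.055 to 0.123. Under the fit with no filter on low counts Tnfrsf9 and Tnfrsf18 passed too.

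The ligands of these receptors are made mostly by antigen-presenting cells, but several were detected in these libraries. Values in parentheses for the genes of this and the following lists are log2 fold changes against unstimulated cells. Of 13 ligands listed, 12 were in the tables and 11 were tested in experiment 1. With 1 nM 21h10, 3 were higher than in unstimulated cells and 6 were lower, with a median log2 fold change of −0.38 beside −0.04 over all genes, and this number called was near the background of 80.3%. Tnfsf4, the ligand of OX40, fell from a mean CPM of 26.0 to 1.79 with 1 nM 21h10 (log2 fold change −3.83, SE 0.14, edgeR adjusted p = 2.78e-14) and to 2.59 with 100 pM mIL-21 (−3.33). Tnfsf9, the ligand of CD137, rose from 3.83 to 18.1 (log2 fold change 2.24, SE 0.09, edgeR adjusted p = 1.48e-13). Pvr, the ligand of CD226 and TIGIT, rose from 13.5 to 74.4 CPM (log2 fold change 2.45, SE 0.06, edgeR adjusted p = 3.77e-16) in experiment 1 and fell from 26.0 to 12.4 (log2 fold change −1.07, SE 0.14, edgeR adjusted p = 1.97e-05) with 100 nM 21h10. Tnf, which TNFR2 binds, fell with 1 nM 21h10 (−1.98), as did Lta (−1.65). Icosl rose in both experiments from a low level, to 1.43 CPM from 0.572 with 1 nM 21h10 and to 3.72 from 0.509 with 100 nM. Cd80 fell with 1 nM 21h10 (−0.38) and Cd86, at 1.35 CPM without cytokine, did not pass there (0.04). With 100 nM 21h10 Cd86 was lower (log2 fold change −1.79, SE 0.24, edgeR adjusted p = 1.66e-05). Fasl did not pass with 1 nM 21h10 (0.16) and rose with 100 pM mIL-21 (0.76). Cd70 and Cd40, counted among the lower ligands, had means of at most 0.349 CPM in every group of experiment 1, and Tnfsf18 at most 0.109. In experiment 2, 10 ligands were tested, of which 3 were higher and 5 lower with 100 nM 21h10 (median −0.50 beside −0.02). There 50.8% of all genes were called. The 5 lower ones included Lta (−2.61) and Tnfsf4 (−1.48) beside Cd86 and Pvr, and the 3 higher ones included Icosl (2.86).

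Of 21 other TNF receptor family genes, 17 were tested in experiment 1, of which 9 were higher and 5 lower with 1 nM 21h10 (median 0.42 beside −0.04, where 80.3% of all genes were called). In experiment 2, 9 of 14 tested were higher and 2 were lower with 100 nM 21h10 (median 1.04 beside −0.02, where 50.8% were called). The largest changes included low genes such as Tnfrsf11b (osteoprotegerin, 2.80 with 1 nM, at most 0.887 CPM) and Tnfrsf11a (RANK, from a mean of 0.168 to 1.36 CPM with 100 nM). Tnfrsf8 (CD30) went from a mean CPM of 79.5 to 304 with 1 nM 21h10 (1.93) but was lower than in unstimulated cells with 100 pM mIL-21 (43.8 CPM, −0.86). Tnfrsf25 (DR3) rose with 1 nM 21h10 (1.41) from 1.43 CPM, and Tnfrsf10b, the TRAIL receptor, rose with 100 nM 21h10 (1.60) and was slightly lower with 1 nM (−0.18). Of 9 other TNF family ligands, 3 of 8 tested were higher and 3 were lower with 1 nM 21h10 (median 0.33 beside −0.04). This number called was near the background of 80.3% and is no result about the list. With 100 nM, 1 of 7 was higher and 5 were lower (median −0.90 beside −0.02, where 50.8% of all genes were called). Tnfsf10 (TRAIL) rose at both (1.12 and 0.98) and Tnfsf11 (RANKL) fell at both (−1.46 and −2.41).

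Below the receptors, all 23 listed TRAF and NF-kB genes were tested. With 1 nM 21h10, 12 were higher and 7 lower (median 0.19 beside −0.04), and with 100 nM, 7 were higher and 5 lower (median 0.05 beside −0.02). Both totals were near the background of 80.3% and 50.8% of all genes and are no result about the list. Tnfaip3, which encodes the NF-kB feedback inhibitor A20, rose with 1 nM 21h10 (log2 fold change 2.09, SE 0.06, edgeR adjusted p = 5.57e-16), as did Relb, the alternative pathway subunit (1.86), and Birc2 (1.37). In experiment 2 Tnfaip3 fell with 10 nM of either cytokine (−0.42 with mIL-21 and −0.47 with 21h10) and with 100 nM mIL-21 (−0.54), and its value with 100 nM 21h10 was 0.05, which did not pass. Nfkb1 (−0.68), Nfkb2 (−0.72) and Traf5 (−0.64) fell with 100 nM 21h10. Between the cytokines at 1 nM, 13 of the 23 were higher with 21h10 and 2 were lower (median 0.21 beside −0.01, where 37.7% of all genes were called).

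For the CD28 and ICOS pathway, 13 of 18 genes were higher and 4 lower with 1 nM 21h10 (median 0.62 beside −0.04, where 80.3% of all genes were called), and 11 were higher and 2 lower with 100 nM (median 0.25 beside −0.02, where 50.8% were called). Malt1, the paracaspase that links these receptors to NF-kB, rose from a mean CPM of 103 to 678 with 1 nM 21h10 (log2 fold change 2.72, SE 0.07, edgeR adjusted p = 1.8e-16). Pik3cb, a catalytic subunit of phosphatidylinositol 3-kinase, rose with 1 nM (1.76) and 100 nM 21h10 (2.13), while Pik3r2, a regulatory subunit, fell from 19.5 to 4.48 CPM with 100 nM (−2.12). In the complex that FAS assembles, 1 of 6 genes was higher and 4 were lower with 1 nM 21h10 (median −0.83 beside −0.04, against the same background). The gene that rose was Cflar, which encodes the caspase-8 inhibitor FLIP (log2 fold change 1.59, SE 0.07, edgeR adjusted p = 4.73e-13). Fadd (−1.83) and Bid (−1.46) were among those that fell. With 100 nM 21h10, 2 were higher, Cflar (1.24) and Casp8 (0.48), and 2 lower. Among the 4 inhibitory relatives listed, Ctla4, the competitor of CD28, rose from 77.0 to 179 CPM with 1 nM 21h10 (1.21) and fell from 289.5 to 170.4 with 100 nM (−0.76). Btla rose at both (0.65 and 1.34), and Cd96 fell with 1 nM (−0.58) and rose with 100 nM (0.39).

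The genes whose pattern lay closest to each member were found among 11257 genes tested in both experiments, by the root mean square difference of log2 CPM centred within each experiment over the 20 libraries. The 20 points share libraries and groups, and the measure is a description. Nearest to Icos were Dock5 (0.10) and Bcl2l11 (0.11), to Fas Casp4 (0.12) and Il21r (0.13), and to Cd226 Cd9 (0.15) and Serpini1 (0.16). Of these, Bcl2l11 encodes the death mediator BIM and Il21r the IL-21 receptor itself. Nearest to Tnfrsf9 were Mt1 (0.18) and Arhgef10 (0.22), to Tnfrsf18 Cdkn1a (0.14) and H2-Q10 (0.21), and to Tnfrsf4 Eif4ebp1 (0.30) and Trib3 (0.34), at larger distances. H2-Q10 has close relatives in its family, so that reads may be split among them. Mt1 encodes a metallothionein, Cdkn1a the cell cycle inhibitor p21, and Eif4ebp1 and Trib3 are known targets of the integrated stress response. For Cd27 they were Hsdl1 (0.07) and Siae (0.08), for Cd28 Rtn3 (0.07) and Aftph (0.08), and for Tnfrsf1b Heatr5b (0.07) and Tpp1 (0.07). On the RPKM scale 9 of these 18 genes were again among the nearest.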

How the data were processed

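RNA of 20 libraries of mouse CD8+ T cells was sequenced. The authors aligned the reads to mm10 with TopHat 2.0.11 and deposited, per library, read counts on the exons of each transcript and RPKM values (reads per kilobase of transcript and per library size); the counting tool, its use of strand and the annotation version are not given in the sources used here. The submitters' processing notes also name Bowtie2 2.2.6, SAMtools 0.1.8, bedtools 2.25.0 and edgeR.

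For each symbol the longest of 31682 transcripts was kept, and for none of the members did another transcript hold more reads. Deposited counts were filtered with filterByExpr (minimum count 10, minimum total 15), scaled by TMM and fitted with edgeR 4.0.16 (quasi-likelihood, 1 fit per experiment over its 5 groups and 1 over 20 libraries for the difference between experiments, R 4.3.3). P-values were adjusted over all genes tested by Benjamini-Hochberg, with a threshold of 0.05. Duplicates differed by more than counting noise. Alternatives were DESeq2 1.42.0, limma 3.58.1 on log2(RPKM + 1), no filter, scaling by mapped reads, the most-read transcript, the compared groups alone, a replicate block, and leaving out each library. The mapped reads used for scaling were those worked out from counts and RPKM. The code was tested on simulated counts. Gene totals were 36824740 to 94070730 reads a library in experiment 1 and 27072917 to 43300094 in experiment 2. Gene positions and promoter windows came from RefSeq and exon overlaps from GENCODE (GRCm38).

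The genes and lists were chosen with earlier results of these data known. Named beside the 10 genes were their ligands, Ctla4, Tigit, at most 4 genes per list and experiment with the largest change past the threshold at the higher 21h10 dose, and the 2 genes nearest in pattern to each member. Some genes are not reported here.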

Additional observations from a re-analysis of the deposited data

Results flagged for a closer look

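In experiment 1 the gap between 21h10 and mIL-21 differed between doses for 6 of the 10 genes, beside 18.4% of all genes. This was a test of the difference itself (edgeR, adjusted over all genes). As log2 fold change at 1 nM minus that at 100 pM, the values were −0.96 for Cd226, −0.72 for Tnfrsf4, −0.57 for Tnfrsf9, −0.55 for Tnfrsf18, −0.31 for Cd27 and 0.55 for Icos. The gap was wider at 1 nM for Cd226, Cd27 and Icos, whereas the TNF receptors Tnfrsf4, Tnfrsf9 and Tnfrsf18 had a narrower gap at 1 nM, with mIL-21 raising them more between doses than 21h10 did. In experiment 2 the gap for Tnfrsf4 was 1.28 wider at 100 nM than at 10 nM on the log2 scale, where 0.922% of all genes were called. This call was lost with limma and without any 1 of 5 libraries, as given above.

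The mean response to cytokine differed between the experiments for 8 of the 10 genes, beside 64.7% of 14530 genes, tested in 1 fit over 20 libraries. As experiment 2 minus experiment 1 on the log2 scale, the values were −2.78 for Tnfrsf9, −2.77 for Tnfrsf4, −1.73 for Tnfrsf18, −1.69 for Cd40lg, −0.79 for Cd27, −0.44 for Cd28, 0.45 for Icos and 0.65 for Fas. Dose range and experiment cannot be told apart in these values, and Cd40lg rests on few reads.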

How the results depend on the processing

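Of 111 member values called over all comparisons, 87 were called under every alternative and 24 were lost under at least 1. For all 10 members the most-read transcript was the one already used, so that this alternative changed none of their counts. None of the 111 changed sign, and 16 of 80 values not called were called under at least 1 alternative. Lost calls numbered 53 over all leave-one-out fits, 15 with limma, 9 under mapped-read scaling, 4 with the compared groups alone, 2 with DESeq2 and 1 with no filter. The number of members called moved by over 1.5 times in 5 comparisons. For 21h10 at 100 nM against 10 nM it was 3, then 5 with the compared groups alone, 1 with limma and 1 to 5 leaving out a library. For 21h10 at 100 nM against unstimulated cells it was 8, then 5 with limma and 5 under mapped-read scaling. For 21h10 against mIL-21 at 100 nM it was 4, and 1 without mIL-21 100 nM replicate 1 or 2 without 21h10 100 nM replicate 1. The dose difference of experiment 2 was called for 1 member, then 0 with limma, 3 with no filter and 0 to 2 leaving out a library. For mIL-21 at 1 nM against 100 pM it was 8, and 5 without either replicate of 100 pM. With the replicate number as a block, only Cd226 for mIL-21 at 1 nM against 100 pM lost its call (edgeR adjusted p = 0.0599 from 0.0499 without the block). Deviations of same-numbered libraries from their group means correlated above 0.1 in 0 of 10 pairs of groups in experiment 1. In experiment 2 they did so in 3 of 10, with a highest correlation of 0.23. Such correlations cannot show whether same-numbered libraries shared a preparation, and the labels do not say. Duplicates leave the spread poorly known, and a library left out leaves its group with 1 sample, assumed to vary like the others. Cd40lg lies near the detection limit.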
